A study of Drosophila melanogaster with 93 samples.

Results

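The autosomal bins free of H3K9me3 peaks were the 10 kb bins of 2L, 2R, 3L and 3R in which peaks covered, on the mean of the libraries, at most 5% of the bin in each of 8 conditions. There were 825 such bins among 10901 autosomal bins, which is 7.57% of them. Together they held 8.24 Mb of 109.0 Mb. In 611 of the 825 no peak of any of the 31 libraries reached into the bin. They were chosen on the peak coverage itself, so their low coverage is a description and not a finding. They were split into 711 pericentric bins, 24 gene-rich arm bins and 90 other arm bins. A bin was called pericentric after 22 Mb on 2L, before 5.5 Mb on 2R, after 23 Mb on 3L and before 4.5 Mb on 3R, and an arm bin was called gene-rich from 2 starts of protein-coding genes. Pericentric bins thus made up 86.2% of the members. This split depends on which peaks are counted. With peaks of q below 0.05 alone, 10762 bins met the limit, of which 14.3% were pericentric and 3024 gene-rich. These shares are near those of all 10901 bins, of which 1664 were pericentric, 3028 gene-rich and 6209 other arm bins. The limit was then met by 1536 of the pericentric, 3024 of the gene-rich and 6202 of the other arm bins. With peaks of at least 1.5-fold enrichment 969 bins met it, of which 74.6% were pericentric and 106 gene-rich.

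H3K9me3 was profiled by sequential chromatin immunoprecipitation of a tagged histone H2B, called Chromatag, which Gal4 switches on in a chosen set of neurons. Each sex gave 4 conditions, namely elav neurons at 1 day and fru P1 neurons at 3 stages, which were 48hr APF (hours after puparium formation), 1 day and 10–12 days. Each condition had 4 libraries, except 10–12 day females with 3. All flies were w and carried P[UAS-Chromatag] opposite P[w+mC, UAS-Gal4], together with 1 copy of fru P1-Gal4 or elav-Gal4. The reporter was thus the same in each group, and the Gal4 line decided which neurons were seen. The fru P1 driver marks neurons that use the P1 promoter of fruitless, a transcription factor gene of courtship behaviour, and elav marks neurons in general. Whole animals were used for the pupal stage and heads for the adult stages, so stage and tissue cannot be told apart between pupae and adults. No markers of the neurons could be checked in these lists. After filtering, 2119672 to 6306013 reads were left per library, and peaks covered 20.6% to 35.3% of the length of all autosomal bins.

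H3K9me3 is a mark of constitutive heterochromatin. It is laid down by the methyltransferases Su(var)3-9 and Eggless, is bound by HP1a, and is known for covering the satellites and transposons around centromeres. Pericentric DNA would therefore be the first place to look for peaks. A peak list, however, can report only places where reads can be assigned. The authors kept reads of 50 bases that aligned at 1 place only, so a stretch whose sequence recurs elsewhere in the genome receives few or no reads whatever its chromatin. How far this accounts for the peak-free bins was not tested. For each bin the share of positions whose 50-base word occurs once in the genome, on both strands, was therefore counted. The rule did not use this share.

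The sequences below show what that means at gene promoters in member bins on the arms. Each is the 30 bases around the TATAAA word nearest to the gene start within 100 bases before it, 5′ to 3′ on the gene's strand, from the dm6 reference, with the TATAAA word in capitals. Together they contrast promoters that recur many times with promoters that occur once.
His2B:CG33910, 2L:21418717-21418746, minus strand: ctcgaaaaaaagTATAAAcgtgaacgcgtt
His2B:CG33876, 2L:21518537-21518566, minus strand: ctcgaaaaaaagTATAAAtgtgaacgcgtt
His4:CG33909, 2L:21419956-21419985, minus strand: tgtcgttttaccTATAAAtaggggcacaca
His2A:CG31618, 2L:21423695-21423724, plus strand: caaacggaaaagTATAAAtatttcgctgtc
Hsp70Bbb, 3R:12502465-12502494, plus strand: agagcgccggagTATAAAtagaggcgcttc
Sgs8, 3L:11509405-11509434, minus strand: catttgttttgcTATAAAaggggtagggtg
CG43060, 3R:8041185-8041214, plus strand: ctttgaagaaccTATAAAtgcggcttaaaa

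The first H2B window occurred 20 times in the genome, before 20 member genes. The second occurred 3 times and differed from it by C19T, counted from 1 at the 5′ end. The H4 window had 22 copies and the H2A window 23. The Hsp70Bbb window had 3 copies, before Hsp70Bbb, Hsp70Bb and Hsp70Bc, genes of the heat-shock chaperone Hsp70. The windows of Sgs8, a glue protein of the larval salivary gland, and of CG43060 occurred once. These windows are shorter than a read, so their copies only illustrate the repetition. Of the 50-base words in the bins that hold them, 35.1% occurred once around His2B:CG33910 and His4:CG33909, 5.59% around His2A:CG31618, none around His2B:CG33876, 13.9% around Hsp70Bbb, 18.7% around Sgs8 and 45.6% around CG43060.

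Across the 825 members the median share of words found once was 12.95%, with quartiles of 4.38% and 27.3%. In the 10076 other autosomal bins the median was 100%. The difference held in each class. The medians were 13.4% in pericentric members and 69.99% in other pericentric bins, 1.89% in gene-rich members and 100% in other gene-rich bins, and 10.1% in other arm members and 100% in the rest of that class. Of the members, 778 (94.3%) had under 50% of words found once, and all 24 gene-rich members did. Neighbouring bins are not replicates, so these medians carry no test.

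**Figure D1:**
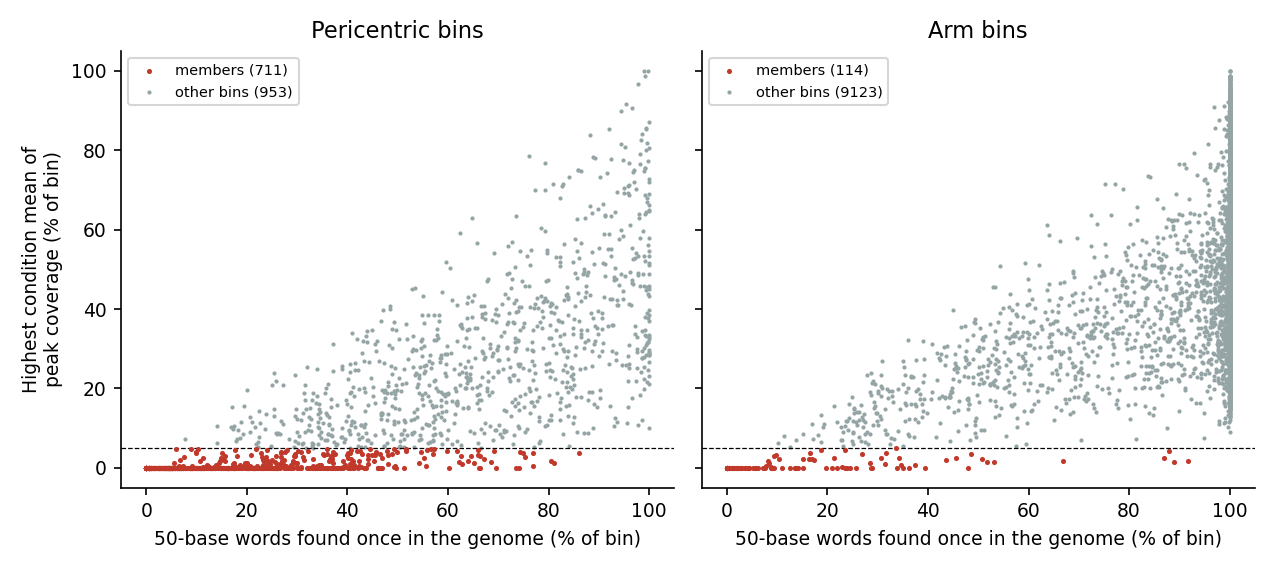
Each point is a 10 kb bin. The horizontal axis gives the percentage of its 50-base words that occur once in the genome, the vertical axis the highest of its 8 condition means of peak coverage, in percent of the bin. The dashed line is the 5% limit. Among 8542 bins with at least 90% of words found once, 1 point lies under the line.

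Read the other way, the share of words found once nearly sorted the bins by itself at its low end. Of 361 bins in which at most 10% of words occurred once, 360 were members, and all 55 bins with no such word were. The exception was 2R:3400001-3410000, where the highest condition mean was 7.36%. Members made up 71.3% of the 397 bins over 10% to 30%, 29.7% of the 454 bins up to 50%, 6.48% of the 509 bins up to 70% and 2.04% of the 638 bins up to 90%. Of 8542 bins at 90% or more, 1 was a member. The fall from stratum to stratum was seen in pericentric and in arm bins, but not at the same height. Between 10% and 30%, 255 of 303 pericentric bins were members (84.2%) and 28 of 94 arm bins (29.8%). Between 30% and 50% the counts were 120 of 299 (40.1%) and 15 of 155 (9.68%). Between 50% and 70% they were 29 of 279 (10.4%) and 4 of 230 (1.74%), and between 70% and 90% 10 of 290 (3.45%) and 3 of 348 (0.862%). In each of these strata pericentric bins were more often members than arm bins. Why they were was not tested.

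**Figure D2:**
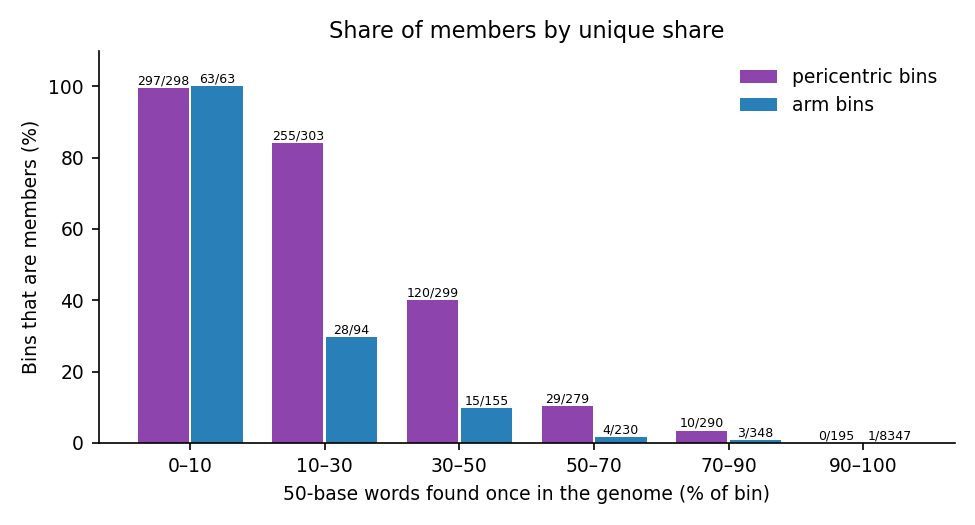
Bars give the percentage of bins that are members, by the share of 50-base words found once, in pericentric and arm bins, with members over bins printed above. The bars fall from 99.7% and 100% in the lowest stratum to 0 and 0.012% in the highest.

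To describe coverage in libraries that had no part in choosing the bins, they were chosen again without all libraries of 1 replicate number, and coverage was read in the libraries left out. Between 807 and 827 bins were chosen, of which 800 to 816 were among the 825, so a few bins of each choice failed the limit in a condition once all libraries were used. No chosen bin had a mean over the 7 or 8 left-out libraries above 5%, but that mean pools conditions and is looser than the rule. In single libraries 0 to 52 of the 825 members were over 5%, with 52 in replicate 3 of elav males. Peaks covered 0.17% ± 0.188 of the length of the chosen bins and 28.8% ± 4.08 of the other autosomal bins (SD over 31 libraries). The mean difference was −28.6 percentage points and had the same sign in all 31 libraries. The left-out libraries are replicates of the conditions that chose the bins, and the chosen bins hold few words found once, so this difference is a description and no p is given for it. The lowest, median and highest library had 0.0197%, 0.082% and 0.875% in the chosen bins, against 22.3% as the lowest in the others. The libraries of the 2 sets of bins did not overlap.

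**Figure D3:**
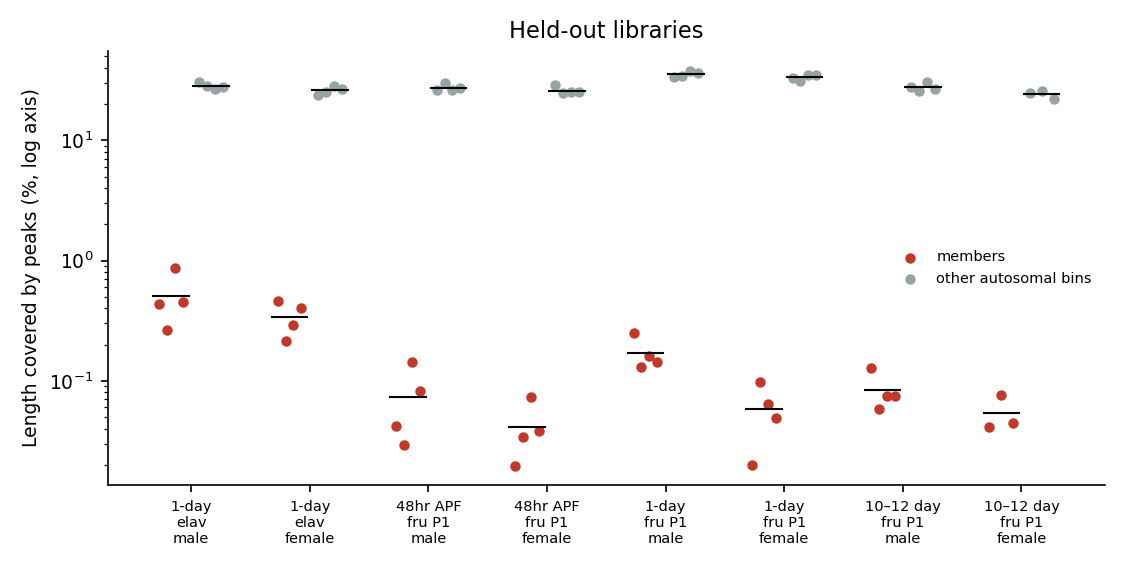
Each point is a library, and the vertical log axis is the percentage of length covered by peaks in bins chosen without that library's replicate number (red) and in all other autosomal bins (grey). Black lines are means of 4 libraries, or of 3 for 10–12 day females. The highest red point, 0.875%, is a library of elav males.

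In the little coverage that remained, elav neurons were above fru P1 neurons, but not past the threshold after adjustment. In 1-day males the held-out members had 0.506% ± 0.26 of their length covered in elav neurons and 0.171% ± 0.054 in fru P1 neurons (SD, n = 4 each). In 1-day females the values were 0.342% ± 0.111 in elav neurons and 0.058% ± 0.0325 in fru P1 neurons. The libraries of the 2 cell types did not overlap in either sex. With an exact two-sided permutation test each comparison gave p = 0.0286, the smallest that 4 against 4 libraries allows, and an adjusted p = 0.0857 over the 12 comparisons of conditions (Benjamini-Hochberg). Male and female fru P1 neurons at 1 day, and male fru P1 neurons at 10–12 days and 1 day, gave the same p and adjusted p. The males had 0.171% ± 0.054 and the females 0.058% ± 0.0325 at 1 day, and the males had 0.0841% ± 0.03 at 10–12 days (SD, n = 4 each). None of the 12 passed 0.05 after adjustment, and 4 passed before it. These 4 were at the smallest p their libraries allow. They could not pass after adjustment unless more of the 12 had reached that p. The lack of a pass therefore says little about whether the conditions differ. The highest library, with 0.875%, was replicate 3 of elav males, the 1 list made with a fragment length of 140 bp, and the other elav male libraries had 0.262% to 0.455%, against at most 0.25% in fru P1 males. Each elav list had its own input as background, whereas the fru P1 lists had a pooled one, and the elav libraries had 2295291 to 3012794 reads, against 3856798 to 6306013 in the 1-day fru P1 libraries, with no overlap. Cell type, kind of input and depth cannot be told apart.

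In the gene-rich members alone, coverage was as low. The means of the 8 conditions lay between 0.0366% and 0.402% of the length. One of the 12 comparisons had p = 0.0286, elav against fru P1 neurons of 1-day females, with 0.0366% ± 0.0476 in elav and 0.394% ± 0.197 in fru P1 neurons (SD, n = 4 each, exact permutation test). It went the opposite way from the comparison over all members. Its adjusted p was 0.343, and none of the 12 was past 0.05. One comparison alone at the smallest possible p cannot pass over 12. The 23 or 24 gene-rich bins behind these values hold few places where a read can be assigned, which limits what could be detected there.

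The gene-rich members were few, and of the 3 classes of members they had the lowest median of words found once. They numbered 24 of 3028 gene-rich bins, or 0.793%, against 7.57% of all autosomal bins. No library had a peak in 19 of the 24. In 13 of the 24 the gene starts were those of the replication-dependent histones, the core and linker histones made in S phase. This run of 14 bins, 2L:21410001-21550000, held 111 protein-coding gene starts, and all 111 replication-dependent histone genes of the autosomes began in it: 23 of His1, 20 of His2A, 23 of His2B, 23 of His3 and 22 of His4. Only 6.1% of its words occurred once, and its median word occurred 22 times. No library had a peak in 13 of the 14 bins. The last bin was reached by a peak in 1 library of 1-day elav females, where the run as a whole had 0.739% of its length covered. The 2 flanking bins, with 49.5% and 57.2% of words found once, had 7.72% ± 4.18 covered (SD over 31 libraries), from 0 in the lowest to 17.9% in the highest.

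**Figure D4:**
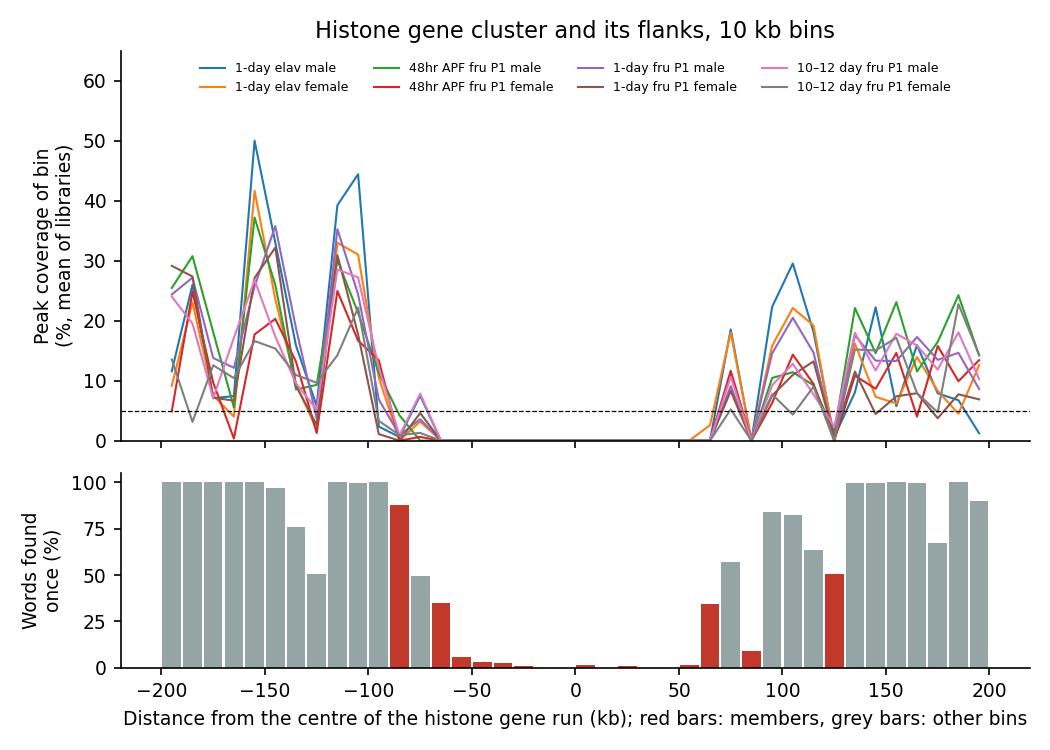
The upper panel gives the mean peak coverage of 10 kb bins (percent of the bin) in each condition against the distance in kb from the centre of the histone gene run, and the lower panel the percentage of 50-base words found once. Coverage is 0 in all 8 conditions over 13 bins in which at most 35.1% of words occur once. The bin at −85 kb, with 87.9% of words found once, is also a member, with condition means of 0 to 4.21%.

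Within each histone family some copies were identical in sequence and others differed. The 23 His3 genes had 2 different gene sequences, of which the commoner was in 18 genes, and the 23 His1 genes had 12. The 250 bases before the gene start came in 6 forms for His1, 4 for His2A, 6 for His2B, 8 for His3 and 7 for His4. The histone genes outside the array lay in bins with peaks. His2Av, a variant H2A, lay in a bin with 13.1% mean coverage, His3.3A in one with 14.8% and His4r in one with 25.1%, and in each bin 100% of words occurred once. HisCl1 and HisT, which the list's name pattern also caught, are not histones.

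Other multi-copy genes were found in members too. The 5S rRNA genes, which encode the small RNA of the large ribosomal subunit, had 80 of their 96 autosomal copies in 2R:19730001-19760000, a run of 3 bins with 2.5% of words found once and a median of 60 copies per word. No library had a peak there, and the 2 flanking bins had 12.4% ± 6.47 covered (SD over 31 libraries). At 3R:12470001-12510000, 4 bins with 8.34% of words found once held Hsp70Bbb, Hsp70Bb and Hsp70Bc and had no peak in any library, beside 16.9% ± 9.13 in the flanking bins. The remaining Hsp70 genes lay in bins with more words found once, and peaks covered part of these bins. The bin of Hsp70Ba had 60.4% of words found once and a mean coverage of 11.4%. Hsp70Aa and Hsp70Ab shared a bin with 56.6% and 10.0%. Coverage of the genes themselves was not counted. One spliceosomal RNA gene, snRNA:U1:95Ca, began in a member, out of 30 autosomal snRNA genes. No tRNA gene did, out of 266, although tRNA genes are also repeated.

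Beside these arrays, the median word had 2 copies in 22 of the 114 arm members and in 50 of all 9237 arm bins. At 2L:15660001-15720000 a run of 6 bins had 0.0783% of words found once and no peak in any library, against 6.58% ± 4.38 in its flanking bins (SD over 31 libraries). It held the starts of 8 protein-coding genes, among them stol, which encodes a subunit of voltage-gated calcium channels, CG18477 and CG18478. At 3L:19710001-19770000 another 6 bins had 0.277% of words found once and no peak, against 21.2% ± 7.66 in the flanking bins. Trpml, a cation channel of lysosomes, began there with CG42529, CG42638 and Vtld, and 0% of the words of Trpml occurred once. Words of 2 copies also prevailed at 3R:9690001-9700000, where p24-2, of the p24 family of secretory cargo receptors, and Unc-115b, an actin-binding protein, lay in a bin with 8.41% of words found once. There 5 libraries had a peak and the highest condition mean was 1.37%.

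The 90 other arm members were rich in transposons. In 56 of them annotated insertions filled at least 50% of the bin, and the median was 74.1%, against 0% in the rest of the class. The long terminal repeat element roo held 172.1 kb, or 23.1%, of the annotated insertion bases of these bins, followed by Rt1b with 44.5 kb and Dm88 with 33.0 kb. The longest run, 13 bins at 2R:6350001-6480000, was 58.1% insertions, had 25.3% of words found once, and held no gene start. Of the arm members of both classes, 39 lay within 1 Mb of a pericentric border, where 400 of the 9237 arm bins lie. These 39 include the histone gene run at 2L:21410001-21550000, near the border at 22 Mb. With borders 1 Mb farther into the arm, 11 of the 24 gene-rich members and 64 of the 90 other arm members kept their class. Some genes began in an other arm member and ran out of it. Only 9.72% of the words in the bin at the start of dpr3, which encodes a cell-surface immunoglobulin protein of neurons, occurred once, but 82.3% of those of the whole gene did. For unc-5, a netrin receptor, the values were 15.1% of the bin and 69.5% of the gene, and for SNF4Agamma, the gamma subunit of AMP-activated kinase, 17.3% and 88.6%. For such genes the peak-free bin says little about the rest of the gene.

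The pericentric members were 711 of 1664 pericentric bins, or 42.7%, from 38.2% on 2L and 38.5% on 2R to 42.2% on 3L and 50% on 3R. No peak of any library reached 533 of them. Soft-masked repeat letters filled a median of 42.1% of a pericentric member and 28.96% of the other pericentric bins. Annotated insertions, whose families were led by 1360 with 68.8 kb and Quasimodo with 68.2 kb, had a median of 0% in both. Undetermined bases filled at least 50% of 13 pericentric members, 8 of them entirely. The longest run was 35 bins at 3R:90001-440000, in which 15.0% of words occurred once and no library had a peak. It was followed by 24 bins at 2R:3650001-3890000 with 13.8%, 22 bins at 3L:27430001-27650000 with 5.28%, and 20 bins at 3L:26880001-27080000 with 2.56%, of which 53.9% was undetermined. None of these 4 runs held a protein-coding gene start.

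**Figure D5:**
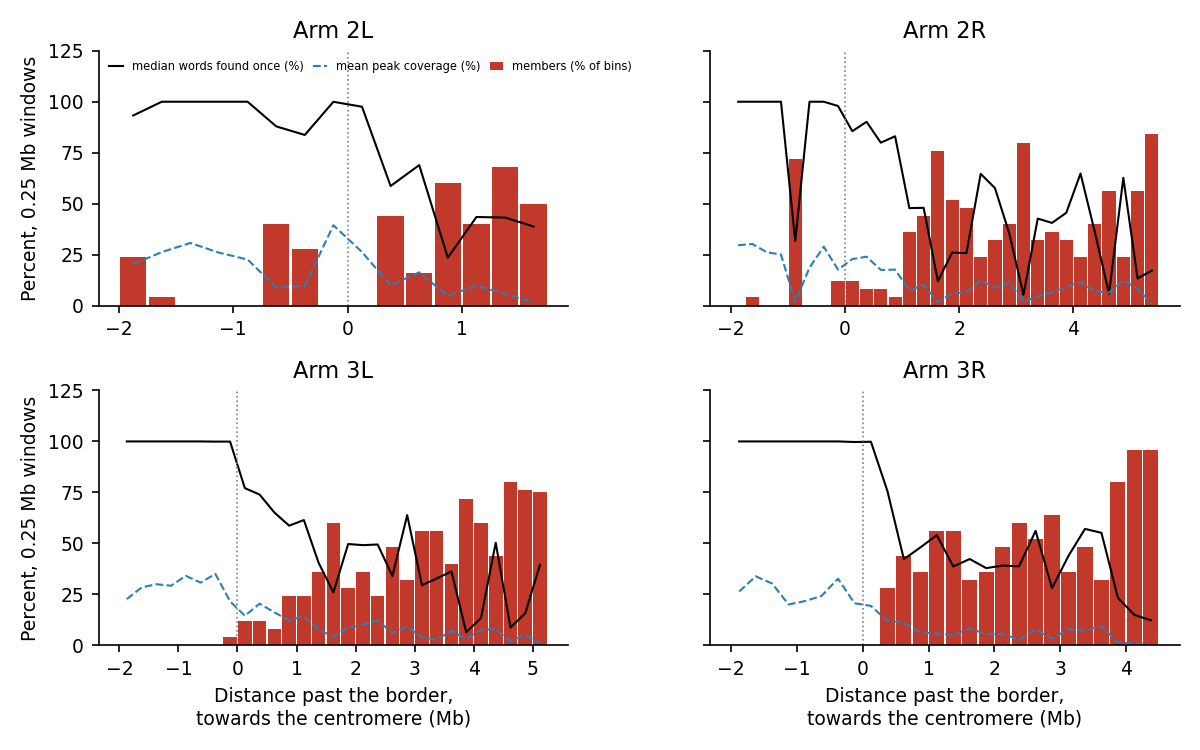
Bars give the percentage of 10 kb bins that are members in windows of 0.25 Mb, against the distance in Mb past the border of the pericentric stretch towards the centromere, with the median percentage of words found once (black) and the mean peak coverage (dashed blue). On 3R the last 2 windows have 96.0% members, where the words found once are at 14.9% and 12.3%.

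The genes with most bases in pericentric members were long. Of the 187 protein-coding genes that begin in a pericentric bin, 11 began in a member, and 36 genes had some base in one. Myo81F, which encodes an unconventional myosin, had 1000 kb of its 1966 kb in members, Pzl, a relative of the mechanosensitive channel Piezo, 320.0 kb of 709.4 kb, and lovit, a transporter of photoreceptor neurons, 160.0 kb of 434.0 kb. These 3 and the next genes in order, CG17684, DIP-lambda, Parp1, l(3)80Fg, Snap25, CG41378 and CG40470, all began outside the members. The start bin of Pzl had 24.1% mean coverage, that of Snap25, a SNARE protein of synaptic vesicle fusion, 22.8%, and that of Parp1, a poly(ADP-ribose) polymerase, 4.66%. Starts inside members were those of eIF4B, a translation initiation factor, uex, a magnesium transporter, stw, the laccase that tans the cuticle, Marf1, l(3)80Fj and 6 genes with CG numbers. Of eIF4B 0.455% of words occurred once, of stw 84.0%.

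Of the 825 members 464 had at least 1000 positions whose word occurs once, but members made mostly of such words were few, and no run of consecutive arm members had 90% of words found once throughout. In 14 members at least 70% of words occurred once, 10 of them pericentric. The highest was 3L:30001-40000, near the left end of 3L, with 91.7%. It had no peak in 30 libraries and 7.35% coverage in 1 library of 1-day fru P1 females. Beside it, 3L:20001-30000 had 88.9% of words found once, a peak in 2 libraries and a highest condition mean of 1.58%. This bin holds mthl8, which encodes a G protein-coupled receptor of the Methuselah family, and all words of the gene occurred once. A peak touched mthl8 in 1 library, over 12.2% of the gene. The bins at 2L:21390001-21400000, within nrv3, a subunit of the sodium pump, and at 3L:24230001-24240000, within Snap25, had 87.9% and 86.1% of words found once and a peak in 6 and 5 libraries. Of 40 bins within 100 kb of the telomere end of an arm, 7 were members.

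Counted over annotated genes, 292 of 15233 autosomal genes began in a member (1.92%), and 161 of 11669 protein-coding genes did (1.38%). With peaks of q below 0.05 alone 11646 coding genes began in a bin at the limit, and with peaks of at least 1.5-fold 461 did. Of the 161, 137 were in gene-rich members. The histones were 111 of the 161, and 133 of the 161 had under 10% of their words found once. In 7 genes at least 90% of words occurred once: Sgs7, Sgs8, CG33500, CG31406, CG43618, CG41128 and mthl8. The bin of Sgs7 and Sgs8 was a member although peaks covered these genes in some libraries, Sgs8 in 13 of 31 and up to 91.4% of its length, and Sgs7 in 10 of 31 and up to 83.0%. Of the whole bin 18.7% of words occurred once. For these 2 genes the bin's 5% limit did not mean a lack of peaks.

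Of 22 gene lists, 19 had no gene that began in a member. They included the cytoplasmic ribosomal proteins (0 of 77), the respiratory chain (0 of 75), the proteasome (0 of 42), odorant receptors (0 of 52), cuticle proteins (0 of 112), homeobox genes (0 of 37), nicotinic acetylcholine receptors (0 of 8), glutathione S-transferases (0 of 33) and cytochrome P450 genes (0 of 72). The translation factors had 1 of 45, eIF4B, and the Dpr and DIP proteins 1 of 26, dpr3. The histone list had 116 of 124, against 1.92% of all genes, and 5 of these are pseudogenes. With 1.38% of all coding genes beginning in a member, a count of 0 is near that share for coding lists of these sizes and says nothing particular of them. Histones are 111 of the 161 coding genes behind that share. The tRNA list was also empty, but its genes are not coding, so the 1.38% does not apply to it.

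Promoter words were searched in the 250 bases before the starts of the 137 coding genes in gene-rich members, on both strands. TATAAA was found before 120 of them (87.6%), against 44.0% of all 11669 autosomal coding genes, and GAGAGAG before 43 (31.4%), against 5.48%. Histones gave 104 and 40 of these, copies of a few promoters, and the 120 promoters with TATAAA had 39 different sequences. Among the 27 genes that are no histones, 16 had TATAAA and 3 had GAGAGAG. TATCGATA was found before 4 of the 137 (2.92%, against 7.29%), CAGCTG before 3 (2.19%, against 13.7%) and GGTCACAC before none (against 3.99%). None of the 110 histone promoters had TATCGATA or CAGCTG, so these low shares reflect the histone copies. Among the 27 other genes, 4 had TATCGATA (14.8%) and 3 had CAGCTG (11.1%).

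The limit was met by more bins in any single condition than in all 8, and in elav neurons most of the added bins had unique sequence. In elav neurons 2003 bins of males and 2269 of females were at or under 5%, of which 1013 and 1189 had at least 90% of words found once. In fru P1 neurons the counts at 48hr APF were 1576 (males) and 1642 (females), at 1 day 1190 and 1470, and at 10–12 days 1201 and 1343, with 16 to 204 of them at 90% or more. Of the bins at the limit in 1 condition only, 234 were in elav males and 394 in elav females, and 218 of the male and 361 of the female bins had at least 90% of words found once. In 74 bins the limit was met in 7 of the 8 conditions, and elav males were the exception in 35 of them. Of the 8542 bins with at least 90% of words found once, 6837 met the limit in no condition and 1, near the end of 3L, in all 8. These counts rest on the same coverage values as the rule and are not tested.

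Around the limit the change was gradual. There were 34 members with a highest condition mean over 4% to 5%, and 31 bins over 5% to 6%. Their medians of words found once were 41.3% and 40.5%. The 611 members with no peak at all had 7.94%, and the 214 with some peak 31.6%. A list of peaks says nothing of reads below the calling threshold, so a bin without a peak is not a bin shown to lack H3K9me3.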

How the data were processed

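H3K9me3 peak lists of 31 libraries were used. Reads were trimmed (Trimmomatic) and mapped to dm6 (Bowtie2 2.2.5) by the authors, who kept reads that align once (SAMtools 1.2) and called broad peaks per library against an input. The file headers give MACS2 2.1.1.20160309, p cutoffs of 0.01 and, for weaker regions, 0.1, 1 tag per position, and a fragment length of 200 bp for 30 lists and 140 bp for 1. The deposited pileup is a signal that is not scaled to depth. The deposited enrichment is a ratio of pileup to local background, and the deposited significance columns are −log10 p and −log10 q.

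The union of the peaks of a library was laid over 10 kb bins from position 1 of each arm, and percent coverage was averaged per condition. Words of 50 bases were counted in the RefSeq copy of Release 6 (the coordinates of dm6), exact matches on both strands, which approximates the aligner, since that allowed mismatches. Peaks are lengthened from reads and can reach into repeats. Genes and insertions are those of Ensembl release 115, and a gene belongs to the bin of its 5′ end.

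Members and gene lists were chosen with earlier results of these data known. Samples were grouped by their titles. The genes named are those in the longest unique arm runs (of which there were none), in the 5 gene-rich members with most coding starts (all histone genes), the 10 coding genes with most bases in pericentric members, list members in member bins, and multi-copy genes in bins under 50% of words found once. Genes in members with at least 70% of words found once or with at least 90% in the gene, and neighbours such as Hsp70Ba, were added after their values were seen. Single values were tested by exact or sign-flip permutation, two-sided. The labels call the libraries biological replicates. Word counts, bin coverage and tests were checked on simulated data: all 20000 words and all 60 simulated free bins were recovered. Python 3.11.15, numpy 2.4.6 and pandas 2.3.3 were used. Alternatives changed the limit, the averaging, the peak thresholds, the bins, the class borders, the libraries and the promoter length.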

Additional observations from a re-analysis of the deposited data

Results flagged for a closer look

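In male fru P1 neurons at 48hr APF, replicate 4 stood apart from the other 3 libraries in held-out coverage of gene-rich members, with 0.546% of their length against 0 to 0.0517%. In female fru P1 neurons at 48hr APF, replicate 1 stood apart in the coverage of bins that are no members, with 28.8% against 24.7% to 25.3%. Chance sets apart about 1 in 20 groups of this size.

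A difference between cell types was seen outside the members, in the bins where at least 90% of words occur once. There the 195 pericentric bins minus the 8347 arm bins gave 14.4 ± 5.63 percentage points in elav neurons of 1-day males and −4.48 ± 6.88 in fru P1 neurons of 1-day males (SD, n = 4 each). The difference between the cell types was 18.9 points (exact permutation test, p = 0.0286, the smallest that 4 against 4 allows). In 1-day females the values were 13.7 ± 5.75 in elav neurons and −15.3 ± 6.25 in fru P1 neurons, a difference of 28.97 points with the same p (exact permutation test, adjusted p = 0.0286 over both). The elav libraries had 2295291 to 3012794 reads and the 1-day fru P1 libraries 3856798 to 6306013. Cell type, kind of input and depth cannot be told apart here. The contrast of pericentric and arm bins was not among the planned comparisons. Its p was adjusted over the sexes only, not over the 12 planned comparisons, so it cannot be set beside theirs.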

How the results depend on the processing

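The 825 members became 10762 with peaks of q below 0.05, 2186 in bins of 5 kb (10.9 Mb), 319 in bins of 20 kb (6.36 Mb), 1 with at least 90% of words found once (no gene-rich member) and 360 on unique positions. They numbered 807 to 827 without 1 replicate number and 611 to 1009 under the other settings tried, of which a limit of 0 gave 611. With q below 0.05 the pericentric share was 14.3%, against 86.2%, where 1664 of all 10901 bins were pericentric. Then 11646 of 11669 coding genes began in members, against 161. Peaks of at least 1.5-fold gave 106 gene-rich members, against 24, and 461 coding genes. Within 1 Mb of the centromere end 244 members were pericentric, and with borders 1 Mb farther into the arm 11 were gene-rich. TATAAA stood in 51.1% of promoters of 100 bases, against 21.05% over all autosomal coding genes. The held-out difference between members and other bins was −28.75 to −28.4 points without a replicate number. Some comparisons in gene-rich members changed sign. None passed over all members, relative to all bins or with p at most 0.05. Over all members and relative to all bins, the comparisons at the smallest possible p were too few to pass after adjustment. Without a replicate none could pass, since 3 against 3 libraries cannot go below p = 0.1 (exact permutation test). Over all members the difference was 0.113 for male minus female fru P1 neurons at 1 day, 0.0101 and 0.0128 for 10–12 days minus 48hr APF in males and females, and 0.284 for elav minus fru P1 neurons of females. With peaks of p at most 0.05 it was −0.0897 for 1 day minus 48hr APF and 0.205 for 10–12 days minus 1 day in males, and 0.115 and 0.156 for 10–12 days minus 48hr APF in males and females. Relative to all autosomal bins male minus female at 48hr APF was −1.9e-04. Without single replicates it ran from −0.101 to 0.129, for male minus female at 10–12 days from −0.0614 to 0.144, for 1 day minus 48hr APF in males from −0.0487 to 0.344, and for 10–12 days minus 48hr APF from −0.109 to 0.169 in males and from −0.0873 to 0.0812 in females. The causes were not tested. Deviations from the condition mean, over bins that are no members, correlated by −0.19 to 0.247 between same-numbered libraries of compared conditions. For elav males and females all 4 same-numbered pairs were negative (−0.185 to −0.106), against a mean of 0.0466 for other pairs. The main comparisons did not pair libraries by number. With the replicate block elav minus fru P1 neurons of females gave −0.357 (p = 0.125, exact sign-flip permutation test), the smallest p that 4 pairs allow, so no comparison could pass and the block says nothing about stability. Peak lists hold no reads below the threshold, and the deposited values were not scaled to depth, so low enrichment in repeats cannot be told from missing reads.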

Other observations

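Counting only positions whose word occurs once, in bins with at least 1000 of them, 360 bins were at most 5% covered in all 8 conditions, and all 360 were members: 325 pericentric, 2 gene-rich and 33 other arm bins. This measure was chosen after the data were seen. On these positions the 464 members with at least 1000 of them had 2.11% ± 1.16 covered in elav males and 1.61% ± 0.449 in elav females, and the other bins 30.3% ± 1.54 and 27.8% ± 1.89 (SD, n = 4 each). In fru P1 neurons the condition means were 0.223% to 0.659% in these members and 25.4% to 37.5% in the other bins. By these means the unique positions of the 464 members were also rarely covered. Of the 464, however, 104 were over 5% on these positions in some condition. They were 88 of 413 pericentric, 4 of 6 gene-rich and 12 of 45 other arm members. These positions are scattered among repeats and the members were chosen on coverage, so the values are a description.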
